A study of Mus musculus with 5 samples.

Results

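The genes described here are 6 fibroblast growth factor (FGF) ligands, Fgf1, Fgf2, Fgf7, Fgf9, Fgf10 and Fgf18, and 3 FGF receptors, Fgfr1, Fgfr2 and Fgfr3, in the uterus of mice aged 15 days. They were taken by their names on the array (FGF1, FGF2, FGF7, FGF9, FGF10, FGF18, FGFR1, FGFR2 and FGFR3), which gave 9 of 29527 named genes and 18 of 45281 probes. The mutant mice were a conditional knockout (cKO) of Dicer, the enzyme that matures microRNAs, in which Cre was driven by the progesterone receptor gene and so acted in cells that express this receptor. The other mice were wild type controls by their labels, and both groups had the mixed hybrid background C57BL/6J;129S5/Brd. Each sample was labelled a pool of uterine tissue and was read on 1 Illumina bead array, with 2 Dicer cKO pools (10 and 12) and 3 control pools (7, 9 and 11). The sources used here give neither the number of uteri in a pool nor whether controls carried Cre or floxed alleles. The p-values below therefore cover the variation among 5 pools, which may in part be technical.

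FGFs are secreted proteins that bind receptor tyrosine kinases together with heparan sulfate, and the receptors then signal through the Frs2 adaptor, Ras and the MAP kinases. In many organs Fgf7, Fgf10 and Fgf18 are made by mesenchyme, and Fgf7 and Fgf10 act on the epithelial form of Fgfr2, while in the lung Fgf9 is made by epithelium and mesothelium and acts on receptors of the mesenchyme. In the adult mouse uterus, the transcription factor Hand2 is known to hold down stromal FGFs, Fgf9 and Fgf18 among them, that stimulate the epithelium to divide.

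Each array detected between 47.0% and 49.5% of its probes, where a probe counts as detected at a detection p under 0.05 against the negative controls of the array. Over 15733 genes, log2 signals correlated at 0.993 to 0.994 between pools of a group and at 0.978 to 0.989 between groups. Dicer1 had log2 signals of 8.62 and 8.75 in the Dicer cKO pools, against 9.15, 9.08 and 9.12 in the control pools, and was lower by limma (-0.43 ± 0.09, SE; adjusted p = 0.0224). A second Dicer1 probe, 990500, which is the one that carries this name on the array, differed by -0.22 ± 0.13 and was not called (limma adjusted p = 0.392 over all probes). Whether either probe reads exons that Cre removes is unknown, so they may check nothing about the deletion. Pgr, whose promoter drives the Cre, read 7.65 and 7.88 in the Dicer cKO pools, against 8.31, 8.72 and 8.56 in the control pools (-0.77 ± 0.14; limma adjusted p = 0.00896). Since it is unknown whether controls carried Cre, an effect of the driver on Pgr cannot be told apart from one of Dicer loss. Markers of uterine stroma (Hoxa10, Hoxa11), smooth muscle (Acta2, Myh11) and epithelium (Krt8, Krt18, Cdh1) were measured in both groups, while Epcam was not detected on any array. In whole uteri, fewer cells of a type and less RNA per cell cannot be told apart.

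Of the 9 genes, 8 could be tested, and 1 passed the test: the ligand gene Fgf9, higher in the Dicer cKO pools. Fgf9 entered the test through its detection in those pools alone. Without any detection filter its limma adjusted p was 0.0062. Its difference was then the same, and in the fit over probes the SE was 0.11 instead of 0.14. The smaller p is thus no separate support. By limma 1 was called higher and 0 lower at a Benjamini-Hochberg adjusted p under 0.05, and 4 had an unadjusted p under 0.05. Among all genes tested, 2.78% were called higher and 3.96% lower, and 20.8% had an unadjusted p under 0.05. The tested genes had a median difference of -0.21 on the log2 scale, against 0.01 over all genes. Fgfr2, Fgf7 and Fgf18 lay below every control pool in both Dicer cKO pools without passing the test, while Fgf1, Fgf10, Fgfr1 and Fgfr3 overlapped between the groups. Thus 4 of 8 genes had groups that did not overlap, where 37.6% of all genes did (19.9% above and 17.6% below the control pools). Of the 12 probes tested, 1 was called and 5 had groups that did not overlap, where 5.87% and 36.7% of all probes did. The shares without overlap lie near those of all genes and probes.

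Detection differed widely among the 18 probes. On all 5 arrays, 9 probes were detected: 1 each for Fgf1, Fgf7, Fgf18 and Fgfr1, a pair for Fgf10 and 3 for Fgfr2. Another 4 probes were detected on no array, and these were additional probes of Fgf10, Fgf18, Fgfr1 and Fgfr3. The probes detected on 1 array were the dim probe of Fgf1, in control pool 9, and the only probe of Fgf2, in Dicer cKO pool 12. Testing required detection on at least 2 of the 5 arrays, which left 12 probes. Fgf9 met this through the Dicer cKO pools alone and Fgfr3 through control pools 7 and 9 alone. Probe 4060167 of Fgfr2 met it through the 3 control pools alone. A count over the genes or probes that passed is thus not a count over the family.

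**Figure D1:**
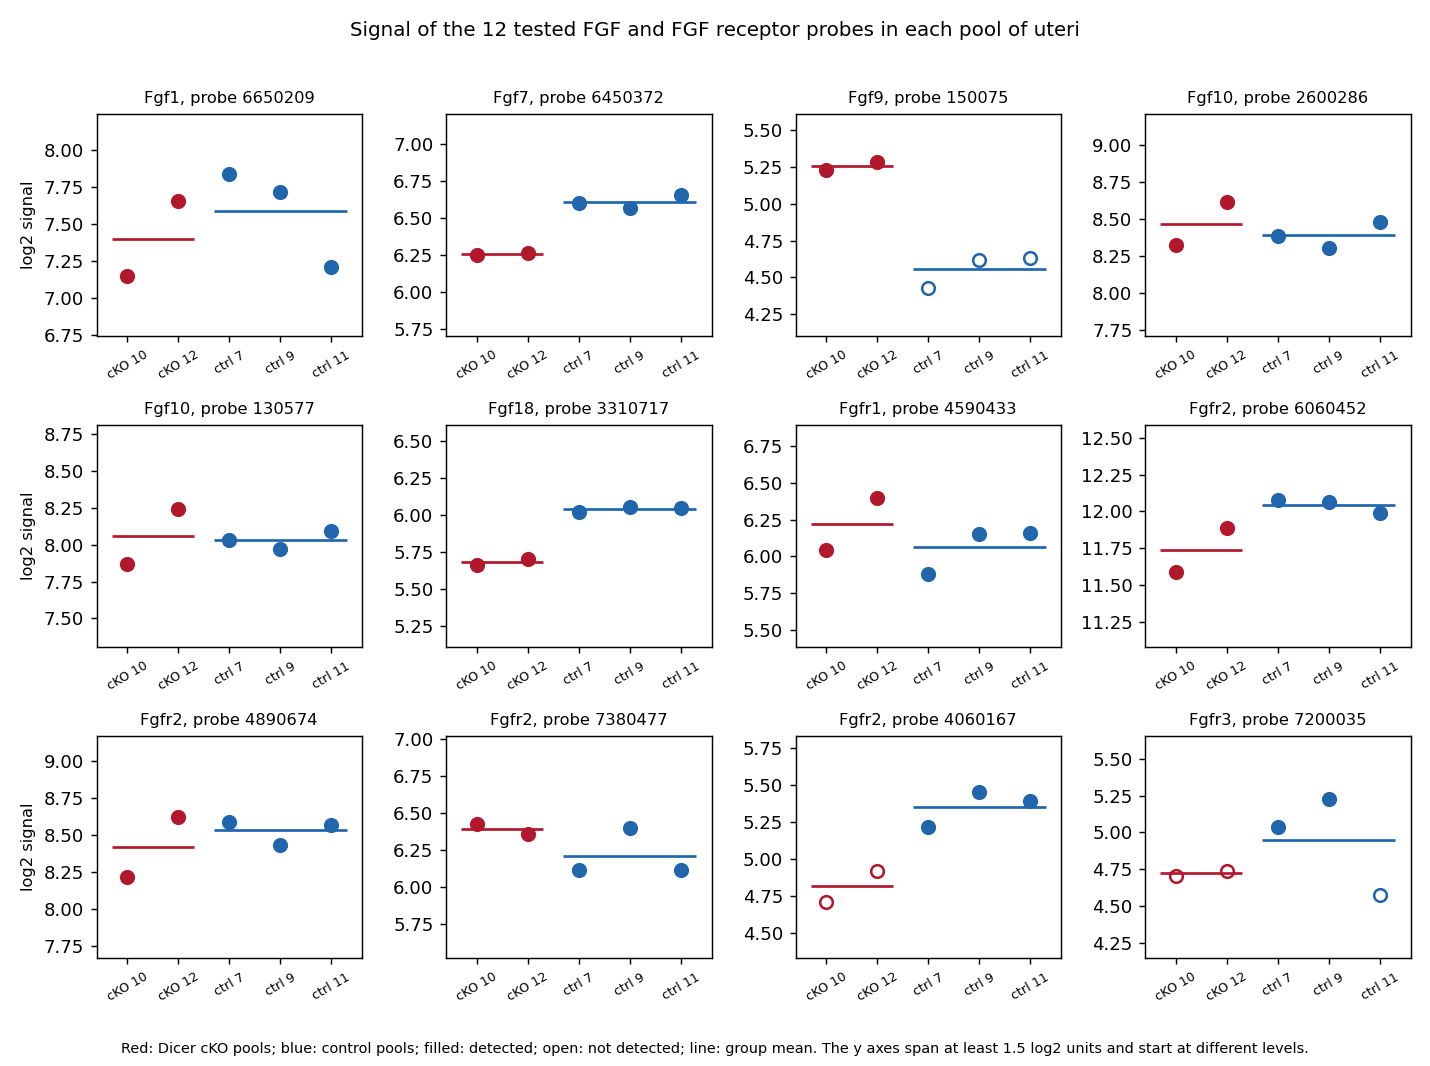
Log2 signal (y axis) of the 12 tested probes in Dicer cKO pools 10 and 12 (red) and control pools 7, 9 and 11 (blue), with filled points for detected and open points for undetected signals and lines for group means. Fgf9 sits at 5.23 and 5.28 in the Dicer cKO pools and at 4.43 to 4.63, undetected, in the control pools.

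Fgf9 is a secreted ligand that acts on mesenchyme in the lung and is among those that stimulate the epithelium in the adult uterus. Its single probe, 150075, read 5.23 and 5.28 log2 units in Dicer cKO pools 10 and 12, against 4.43, 4.62 and 4.63 in control pools 7, 9 and 11. Both Dicer cKO pools lay above all control pools, and the values within each group were close together. The intensities before normalization were 65.6 and 69.9 in the Dicer cKO pools and 47.3, 53.1 and 50.8 in the control pools, so the signal was dim everywhere. The detection p was 0.0191 and 0 in Dicer cKO pools 10 and 12, and between 0.204 and 0.456 in the control pools. Fgf9 was thus present above background in the Dicer cKO pools and was not well above background in the control pools.

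The fitted difference of Fgf9 was 0.69 ± 0.14 log2 units (SE; 95% interval 0.39 to 0.995; limma adjusted p = 0.0146). Since no control array detected it, the fold between the means is given as a bound without sampling error. Set against the lowest detected signal of each control array, the Dicer cKO mean of Fgf9 was at least 1.23-fold higher. Without control pool 7 the limma adjusted p was 0.0566, without Dicer cKO pool 12 it was 0.0654 and without Dicer cKO pool 10 it was 0.102, with differences of 0.61, 0.66 and 0.73. With an offset of 50 in the background step the difference was 0.32. Under a detection p of 0.01, or with detection required on all 5 arrays, Fgf9 could not be tested.

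The genes whose log2 signals followed Fgf9 most closely over the 5 arrays were Nxnl2, Mybpc1 and Ppp1r8, with Pearson correlations of 0.999 each. The control values of Fgf9 that entered these correlations were undetected. The 5 arrays share their group difference with many genes, and 466 genes (2.96% of those tested) correlated with Fgf9 above 0.95. Of the 3, Nxnl2 (0.75 ± 0.13) and Mybpc1 (0.62 ± 0.11) rose, while Ppp1r8 differed by 0.21 ± 0.09 and was not called (limma adjusted p = 0.216).

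Fgf7, also called keratinocyte growth factor, and Fgf10 are stromal ligands of the epithelial Fgfr2 form, and each was measured by a probe detected on all arrays. The probe of Fgf7 read 6.25 and 6.26 in the Dicer cKO pools, against 6.60, 6.57 and 6.65 in the control pools. Both Dicer cKO pools lay below all control pools, with a difference of -0.35 ± 0.12 (95% interval -0.62 to -0.07; limma adjusted p = 0.138). The brighter probe of Fgf10, 2600286, read 8.32 and 8.61 in the Dicer cKO pools and 8.38, 8.30 and 8.48 in the control pools. The groups overlapped, and the difference was 0.08 ± 0.12 (95% interval -0.18 to 0.34; limma adjusted p = 0.767). A second detected probe of Fgf10, 130577, gave a similar picture, at 7.87 and 8.24 in the Dicer cKO pools against 8.03, 7.97 and 8.09 in the control pools. Whether Fgf7 and Fgf10 differed in their change was not tested.

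Fgf18 is a ligand that is known best from bone and lung. Its detected probe, 3310717, read 5.66 and 5.70 in the Dicer cKO pools, against 6.02, 6.05 and 6.05 in the control pools. The groups were separate and each was tight, with a difference of -0.36 ± 0.13 (95% interval -0.64 to -0.07; limma adjusted p = 0.142). The second probe lay at 4.37 to 4.46 on all arrays, below detection.

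Fgf1 binds all FGF receptors and lacks a classical secretion signal. It varied as much within groups as between them: probe 6650209 read 7.15 and 7.65 in the Dicer cKO pools, against 7.84, 7.72 and 7.21 in the control pools. Its difference was -0.19 ± 0.20 (95% interval -0.64 to 0.27; limma adjusted p = 0.670), and without Dicer cKO pool 10 it was 0.07. The dim probe of Fgf1 read 4.55 and 4.97 in the Dicer cKO pools, against 4.87, 5.33 and 4.78 in the control pools. Fgf2, the basic FGF of stroma and matrix, read 4.55 and 5.13 in the Dicer cKO pools, against 4.48, 4.72 and 4.56 in the control pools, and was detected only in Dicer cKO pool 12. Its groups overlapped, and it did not meet the detection rule for a test.

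Among the receptors, Fgfr2 had the most probes, and the estimates of its tested probes ran from -0.54 to 0.19. Its brightest probe, 6060452, read 11.59 and 11.89 in the Dicer cKO pools, against 12.07, 12.07 and 11.99 in the control pools. Both Dicer cKO pools were below every control pool, pool 10 by more than pool 12. The difference was -0.30 ± 0.09 (95% interval -0.51 to -0.10; limma adjusted p = 0.0813). It was -0.16 without Dicer cKO pool 10, and -0.45 without Dicer cKO pool 12, where it was called (limma adjusted p = 0.0197).

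The dimmest tested probe of Fgfr2, 4060167, was detected in all 3 control pools and in neither Dicer cKO pool. It read 4.71 and 4.92 in the Dicer cKO pools, against 5.21, 5.45 and 5.39 in the control pools, a difference of -0.54 ± 0.15 (limma adjusted p = 0.0594 over all probes). Against the lowest detected signals of the Dicer cKO arrays, it was at least 1.27-fold lower there. Probe 4890674 overlapped between the groups, with 8.22 and 8.62 in the Dicer cKO pools against 8.59, 8.44 and 8.57 in the control pools. Probe 7380477 had the opposite sign, with 6.43 and 6.36 in the Dicer cKO pools against 6.12, 6.40 and 6.11 in the control pools (0.19 ± 0.14; limma adjusted p = 0.531).

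Fgfr2 is spliced into an epithelial and a mesenchymal form, and the sources used here do not say which exons the 4 probes read. Esrp1 and Esrp2, splicing factors that favour the epithelial form of Fgfr2, differed by -0.04 ± 0.10 and -0.37 ± 0.13 and were not called (limma adjusted p = 0.885 and 0.140).

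Fgfr1, the main receptor of mesenchymal cells, read 6.05 and 6.39 in the Dicer cKO pools, against 5.88, 6.15 and 6.16 in the control pools. The groups overlapped, at 0.16 ± 0.16 (95% interval -0.20 to 0.51; limma adjusted p = 0.639). Fgfr3, a receptor best known from cartilage, was near background: its better probe, 7200035, read 4.71 and 4.74 in the Dicer cKO pools, where it was not detected, against 5.03, 5.23 and 4.58 in the control pools. It was not called (limma adjusted p = 0.563). Its difference, -0.22 ± 0.19 (95% interval -0.64 to 0.19), is of uncertain size. No fold is given, since the control mean lay under the lowest detected signals of the Dicer cKO arrays. RefSeq places Arhgap26 over Fgf1, Nudt6 over Fgf2, Fam227b over Fgf7 and predicted genes over Fgfr1, and it was not tested whether those probes read the neighbours.

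**Figure D2:**
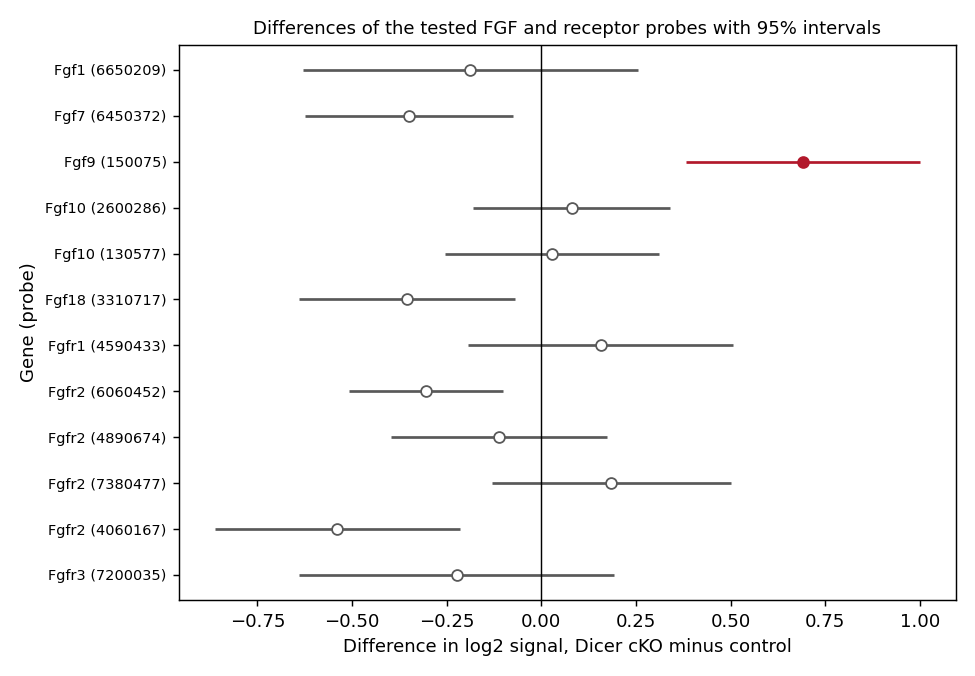
Differences in log2 signal, Dicer cKO minus control (x axis), for the 12 tested probes (rows), as points with 95% intervals from limma; the filled point passed an adjusted p under 0.05. Fgf9 is the filled point at 0.69, and the 4 probes of Fgfr2 spread from -0.54 to 0.19.

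Markers of the cell types in the uterus were read beside these genes. Of 11 epithelial markers tested, 2 rose (Krt7 and Cldn4) and 5 fell (Krt8, Krt18, Krt19, Cldn3 and Rab25). Among all genes, 2.78% were called higher and 3.96% lower. Cdh1, Cldn7, Esrp1 and Esrp2 were not called. The summed linear signal of the 11 was 8298 to 8313 in the Dicer cKO pools, against 10960 to 14125 in the control pools. Bright probes weigh most in such a sum. Of 12 stromal markers, 0 rose and 4 fell by limma, and 7 lay below all control pools, where 17.6% of all genes did. Their sums were 38518 to 43602 in the Dicer cKO pools against 46564 to 48511 in the control pools. Of 5 mesothelial markers, 0 were called by limma and 0 had an unadjusted p under 0.05, with Msln at 0.07 ± 0.16 and Upk3b at 0.08 ± 0.12, and their sums overlapped, at 3008 to 3447 in the Dicer cKO pools and 2884 to 3287 in the control pools. Beside the values of Fgfr2, Fgf7 and Fgf18, the part of these marker shifts was not tested. Fgf9 was higher where the epithelial sum was lower, and the part of that sum in Fgf9 was not tested. Smooth muscle had 0 of 8 markers called by limma and 0 with an unadjusted limma p under 0.05. Of the 8, 4 lay above all control pools and 0 below, where 19.9% and 17.6% of all genes did. Their sums were 48905 to 50276 in the Dicer cKO pools and 46474 to 48765 in the control pools. Macrophage markers were called higher in 3 of 6 cases and lower in 0 by limma, where 2.78% and 3.96% of all genes were. Of the 6, 5 had an unadjusted limma p under 0.05, where 20.8% of all genes did. Their sums were 2271 to 2867 in the Dicer cKO pools against 1564 to 1857 in the control pools. Of 3 adipocyte markers tested, 2 fell, where 3.96% of all genes did, and Fabp4, Plin1 and Retn were detected on no array. The sums of the tested adipocyte markers were 639 to 1472 in the Dicer cKO pools against 1877 to 3532 in the control pools. Of 6 endothelial markers, 0 were called by limma and 1 had an unadjusted limma p under 0.05, where 20.8% of all genes did.

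The rest of the FGF pathway was read from 5 lists of 82 genes, of which 61 could be tested. Of these, 7 rose and 3 fell, and the other 51 were not called, where 6.74% of all genes were called in either direction. Leaving out control pool 9 gave 4 higher and 1 lower. Leaving out Dicer cKO pool 10 gave 4 higher and 0 lower by limma, and leaving out Dicer cKO pool 12 gave 4 higher and 3 lower. Of the 61 genes, 22 had an unadjusted limma p under 0.05, where 20.8% of all genes did. The median difference of the 61 genes was -0.02, against 0.01 over all genes.

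Most of the other FGF ligands were below detection. Of 16, 10 were not detected on any array, among them Fgf4, Fgf5, Fgf8 and Fgf20, and 6 were tested. Fgf22, a relative of Fgf7 and Fgf10, rose: it read 5.79 and 5.64 in the Dicer cKO pools, against 5.05, 5.23 and 5.21 in the control pools (0.55 ± 0.14; limma adjusted p = 0.0437). This call was lost in 7 of 13 alternative settings, each setting that left out a pool among them. Its second probe was detected on no array.

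Of the other receptors and co-receptors, 5 of 9 were tested, 1 was called, and 4 lay above all control pools, where 19.9% of all genes did. Flrt1, a membrane protein of a family that binds FGF receptors, read 9.05 and 8.95 in the Dicer cKO pools, against 8.12, 8.25 and 8.13 in the control pools (0.83 ± 0.10; limma adjusted p = 0.00115). A second, dimmer probe differed by 0.51 ± 0.13 (limma adjusted p = 0.0549). Flrt1 lies over Macrod1 in RefSeq, and the probe that was used carries the name of a cDNA clone, so signal of the neighbour cannot be told apart. Fgfrl1, a receptor without a kinase, stood at 0.33 ± 0.14 and was not called (limma adjusted p = 0.225). Fgfr4, the klotho co-receptors Kl and Klb and the carrier Fgfbp1 were detected on no array.

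In the relay from receptor to nucleus, 0 of 16 tested genes were called by limma and 2 had an unadjusted p under 0.05, and their median was -0.05. The strongest were Ptpn11, the phosphatase Shp2, at 0.17 ± 0.07 (limma adjusted p = 0.180), and the kinase gene Braf at -0.32 ± 0.14 (limma adjusted p = 0.223). The adaptor gene Frs2 differed by -0.06 ± 0.10.

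Genes that FGF signalling is known to induce went both ways. Of 12 tested, 3 rose and 1 fell, with a median of -0.18, where 2.78% of all genes were called higher and 3.96% lower. An unadjusted limma p under 0.05 was found for 8 of the 12, and for 20.8% of all genes. Of the 12, 3 lay above and 5 below all control pools, where 19.9% and 17.6% of all genes did. Etv4, an ETS transcription factor of the PEA3 group, read 6.02 and 6.15 in the Dicer cKO pools, against 4.78, 5.03 and 4.75 in the control pools (1.23 ± 0.14; limma adjusted p = 0.00108), and was detected in 1 of the control pools. Its control mean, 4.86, lay under the lowest detected signals of the control arrays (4.93 to 4.98), so the size of the difference is uncertain. Over 12 alternative settings the Etv4 difference ran from 0.69 to 1.31 and was called in each. With detection required on all 5 arrays Etv4 could not be tested. Its close relative Etv5 fell: it read 7.24 and 7.51 in the Dicer cKO pools, against 8.03, 8.10 and 7.92 in the control pools (-0.64 ± 0.12; limma adjusted p = 0.0136). A second probe of Etv5 had a difference of -0.58 ± 0.16 and was not called (limma adjusted p = 0.0610 over all probes). These 2 relatives thus passed the test in opposite directions.

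Dusp4, a phosphatase of MAP kinases, read 7.36 and 7.83 in the Dicer cKO pools, against 6.84, 6.64 and 6.91 in the control pools (0.80 ± 0.16; limma adjusted p = 0.0156). Ccnd1, the cyclin that many growth signals induce, stood at 11.65 and 11.73 in the Dicer cKO pools, against 11.01, 11.16 and 11.26 in the control pools (0.54 ± 0.09; limma adjusted p = 0.00529). The feedback inhibitor genes Dusp6 (-0.27 ± 0.08), Spred1 (-0.31 ± 0.09) and Il17rd (-0.35 ± 0.13) lay below all control pools, where 5 of the 12 genes of the list and 17.6% of all genes did. They were not called (limma adjusted p = 0.0978, 0.0862 and 0.165). Of the other feedback inhibitors tested, Spred2 (-0.18 ± 0.17) and Spry3 (0.02 ± 0.16) overlapped between the groups. Spry4, another feedback inhibitor, was detected in all 3 control pools and in neither Dicer cKO pool, so it entered the test through control pools alone. Against the lowest detected signals of the Dicer cKO arrays, its control mean was 1.17-fold higher, a bound without sampling error. Spry4 was not called (limma adjusted p = 0.124). Without control pool 9 the calls of Dusp4 and Etv5 were lost, as they were for Dusp4 without Dicer cKO pool 12 and for Etv5 without Dicer cKO pool 10, with limma adjusted p up to 0.0858 for Dusp4 and 0.141 for Etv5.

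Heparan sulfate holds FGFs at the receptor, and of its 22 genes tested 2 rose and 2 fell, with a median of -0.01. Among all genes, 2.78% were called higher and 3.96% lower. Of the 22, 9 had an unadjusted limma p under 0.05 and 12 had groups that did not overlap. Among all genes, 20.8% and 37.6% did. Gpc3, a glypican core protein, read 10.74 and 10.95 in the Dicer cKO pools, against 11.81, 11.56 and 11.39 in the control pools (-0.74 ± 0.12; limma adjusted p = 0.00529). A second probe of Gpc3 gave -0.99 ± 0.09. Hs3st1, a 3-O-sulfotransferase, had a difference of -0.49 ± 0.12 (limma adjusted p = 0.0377), lost in 7 of 13 settings. Sulf2, an extracellular sulfatase that trims heparan sulfate, read 10.17 and 10.10 in the Dicer cKO pools, against 9.41, 9.52 and 9.70 in the control pools (0.59 ± 0.10; limma adjusted p = 0.00714). Sdc1, the main syndecan of epithelia, rose by 0.53 ± 0.13 (limma adjusted p = 0.0421), a call lost in 8 of 13 settings, and its second detected probe gave 0.27 ± 0.14 (limma adjusted p = 0.313 over all probes). The calls of Gpc3 and Sulf2 were lost without Dicer cKO pool 10, with limma adjusted p of 0.0813 and 0.0848.

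**Figure D3:**
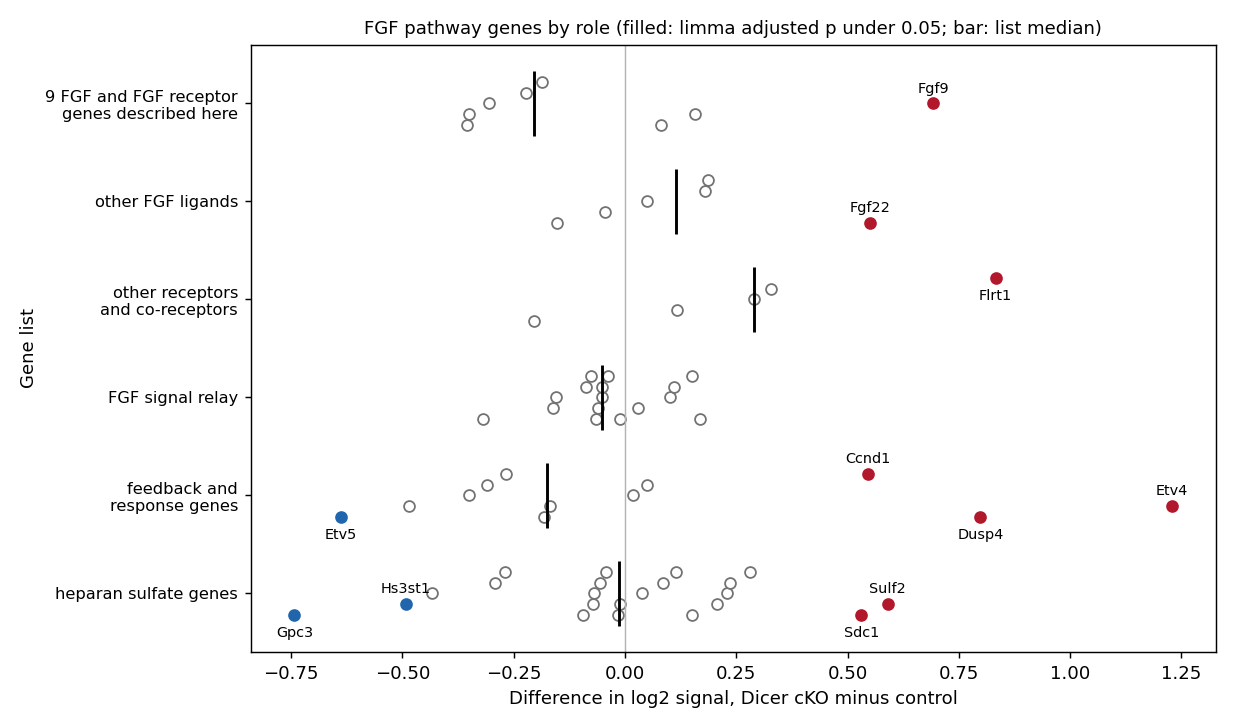
Differences in log2 signal, Dicer cKO minus control (x axis), of the tested genes in 6 lists by role (rows), with filled points for an adjusted p under 0.05 and a bar at each list's median. Etv4 at 1.23 lies farthest to the right and Gpc3 at -0.74 farthest to the left, and no relay gene is filled.

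**Figure D4:**
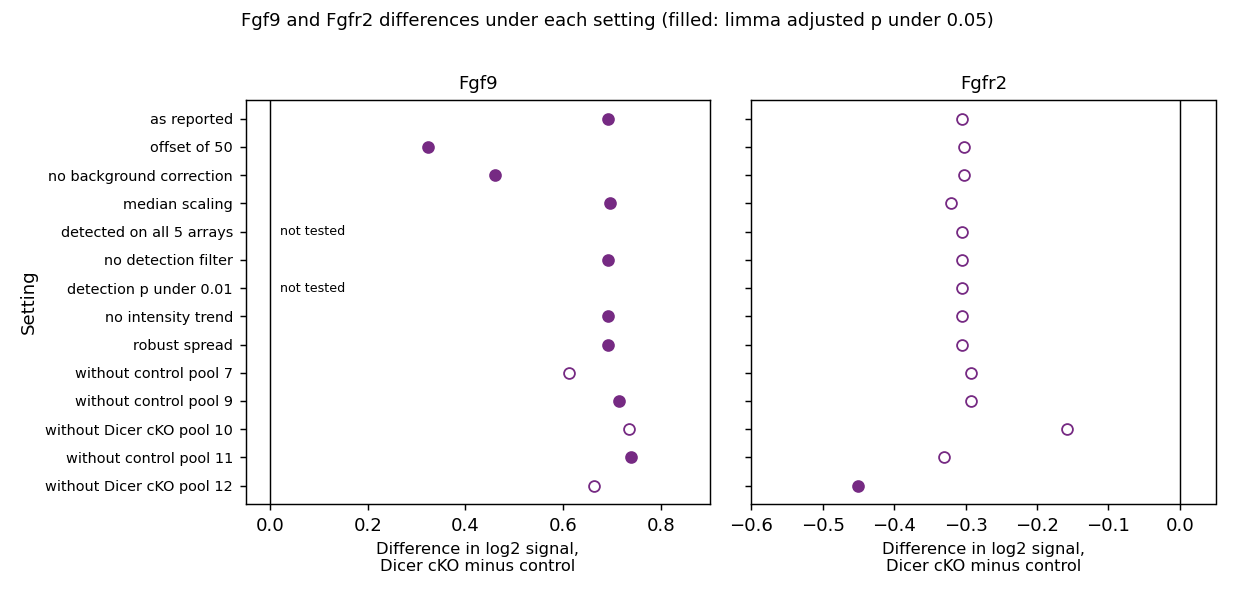
Difference in log2 signal, Dicer cKO minus control (x axis), of Fgf9 and Fgfr2 under the reported setting and 13 alternatives (rows), filled where the adjusted p was under 0.05. Fgf9 stays between 0.32 and 0.74 where it could be tested, and Fgfr2 runs from -0.45 without Dicer cKO pool 12 to -0.16 without Dicer cKO pool 10.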

How the data were processed

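Total RNA of 5 pools of uteri was labelled with biotin and read on Illumina bead arrays. The labels' protocols name a human array, while the gene names in the files are those of mouse genes. Per the submitters' processing notes the software was BeadStudio. Per the file headers, the authors deposited for each probe a mean bead intensity, the SD of that bead signal, the number of beads (median 44) and a detection score. The medians of the deposited intensity differed between arrays (57.5 to 63.0), so the values were treated as not yet normalized. The deposited detection score is a fraction from 0 to 1, and 1 minus it was used as the detection p. A normalized table of the whole series was not used, since its row identifiers match no column of the array files.

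The neqc function of limma 3.58.1 (R 4.3.3) corrected the background (normexp, offset 16), normalized by quantiles and took log2. The offset compresses differences of dim probes. RefSeq (GRCm38.p6) served to update gene symbols and to find overlapping genes, and no coordinates are given, since no build is named. Of 45281 probes, 22845 had a detection p under 0.05 on at least 2 arrays. The brightest probe represented a gene, which gave 15733 genes; other probes were tested in a second fit over the 22845 probes. limma (lmFit, eBayes with an intensity trend) compared Dicer cKO with control pools, 2-sided, without covariates, with Benjamini-Hochberg adjustment over all genes or probes. Where a pool was left out, the same genes were tested. The number of arrays limits the precision, and with no slide or scan information no batch could be tested. Within groups, the squared difference of 2 arrays over its bead variance had a median of 1.40 to 1.92, where 0.455 would mark 1 library read again. The fit was tested on simulated data. The genes and lists were chosen with earlier results of these data known. Named were all probes of the 9 genes, Dicer1, Pgr, called genes of the pathway lists (or the 2 strongest of a list without calls) and the 3 genes most like Fgf9. Other genes were picked after their values were seen.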

Additional observations from a re-analysis of the deposited data

How the results depend on the processing

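The 14 alternatives changed the background step, the normalization, the detection filter, the unit of the test or the spread estimate, or left out a pool. With 1 pool left out, between 304 and 986 genes were called by limma (1061 with all pools): leaving out control pool 7 gave 622, control pool 9 gave 652 and Dicer cKO pool 10 gave 304. Of the FGF and receptor genes, between 0 and 1 were called higher and between 0 and 1 lower (Fgfr2, without Dicer cKO pool 12), and between 0 and 1 probes were called. With detection on all 5 arrays, or a detection p under 0.01, 0 of these genes and 0 probes were called by limma, since Fgf9 was not tested. Of the other pathway genes, 4 to 5 were called higher and 0 to 3 lower with a pool left out. The sign turned for Fgf1 without Dicer cKO pool 10, with a range over the pools left out of -0.44 to 0.066. It turned without Dicer cKO pool 12 for Fgf10 (-0.065 to 0.23) and Fgfr1 (-0.017 to 0.33). None of these 3 was called by limma in any setting, and the cause was not tested. No paired analysis was possible because the groups share no pool number. The authors' normalized table was not run, as its rows could not be named. Dim signal limits Fgf2, Fgf9 and Fgfr3, for which 1 array above or below detection decides whether a test is made.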
